A study of Homo sapiens with 24 samples.

Results

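The 2 kinds of control culture of the human ovarian cancer line A2780 were set against each other: cells given a control siRNA (siCtrl) and cells given the solvent DMSO. They are 6 of the 24 RNA-seq libraries of a study of VRK1 and luteolin, chosen by title, with 3 libraries in each of the 2 groups. A small interfering RNA with no intended target is the usual control for a knockdown, and DMSO is the usual control for a dissolved compound. The study used each as the baseline of another treatment, an siRNA against the kinase VRK1 and the plant flavone luteolin, in A2780 and in a further ovarian cancer line, ES2. All groups carry the genotype label WT and the cell type label of an ovarian cancer cell. The sources used here give no siRNA sequence, carrier, DMSO concentration, cell density or duration. Transfection, siRNA, solvent, density and time therefore cannot be told apart in this comparison. No label states that replicates were grown separately, and p-values thus reflect only how far these libraries scatter, which may be technical.

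Transfection brings lipid carrier and double-stranded RNA into a cell, where RNA sensors can start an interferon response and uptake passes through lysosomes. DMSO is a polar solvent that enters cells freely. Cultures that differ in density or age also differ in growth control, contact signals and nutrient supply. The transcription factor p53 answers many kinds of stress by switching on genes for cell cycle arrest, repair and death.

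The table gives TPM, transcript abundance scaled to sum to 1000000 in each library, which keeps no depth, so counting error could not be estimated. The number of genes at 1 TPM or more ranged from 11862 to 12346. Across genes, log2 levels correlated at 0.991 to 0.994 within a group and at 0.975 to 0.981 between siCtrl and DMSO, where genes are not independent replicates. VRK1, the target of the study, was at 54.4, 53.6 and 55.2 TPM with siCtrl and at 55.1, 48.8 and 58.7 TPM with DMSO. The VRK1 levels of the groups overlapped, and the difference did not pass the test (adjusted p = 0.954). Of 14 ovarian carcinoma markers, only KRT18, a keratin, and ARID1A, a chromatin remodelling subunit, reached 1 TPM in all 6 libraries. PAX8, WT1, MUC16, MSLN, KRT7 and SOX17 of the same list were at 0 or at most 0.132 TPM in each. The summed level of the 11 leukocyte markers was 2.21 to 3.89 TPM with siCtrl and 3.16 to 3.82 TPM with DMSO. The 8 endothelial and 6 erythroid markers summed to 0.98 to 6.17 TPM. The 9 fibroblast markers summed to 86.4 to 89.2 TPM with siCtrl and 109.7 to 123.8 TPM with DMSO, and the 8 neural markers to 304.7 to 317.2 TPM and 352.4 to 361.6 TPM. Single genes weighed most in the differences between these sums: THY1 was at 16.4 against 42.5 TPM and NES at 229.7 against 309.9 TPM. PDGFRA was at 14.3 against 9.75 TPM, BCAN at 53.97 against 12.88 TPM and MAP2 at 16.3 against 8.44 TPM. COL3A1, the largest part of the fibroblast sum, was at 48.05 against 52.6 TPM and neither rose nor fell by the test below. The part of other cells in the results below was not tested.

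Differences were tested with limma for 13012 genes on the log2 of TPM + 1, with p-values adjusted by Benjamini-Hochberg over all of them. On the deposited scale, 6144 genes (47.2%) were higher with siCtrl and 1412 (10.9%) were lower. The median gene was higher by 0.24 on the log2 scale. After the libraries were rescaled by median-of-ratios, which sets the median gene near 0, 2949 genes were higher and 3467 were lower. A gene is therefore said to have risen or fallen below only if it passed the threshold in the same direction on both scales, which held for 2948 rises (22.7%) and 1411 falls (10.8%). The rises are thus nearly those of median-of-ratios scaling and the falls nearly those of the deposited scale, so a list with few falls can have more members lower after scaling. Counts of list members below are to be read beside the 22.7% and 10.8% of all genes, and no list was tested against these shares. Log2 changes of genes are siCtrl minus DMSO, relative to the median of 0.24, with the standard error of the fit.

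Target genes of p53 had the highest median change of the 30 gene lists examined. Of 32 members tested, 24 rose and none fell, against the background of 22.7% and 10.8%. The median of the list stood 0.43 above that of all genes on the log2 scale, and 25 members were higher after centring by GC content and length. CDKN1A, the cell cycle inhibitor p21, was at 183, 168 and 168 TPM with siCtrl and at 48.1, 52.0 and 48.3 TPM with DMSO. Every siCtrl library lay far above the highest DMSO level of CDKN1A, and the log2 change was 1.54 ± 0.07 (adjusted p = 7.13e-09). GDF15, a stress cytokine, was at 133, 128 and 134 TPM against 45.5, 49.6 and 41.0 TPM, with a log2 change of 1.27 ± 0.07 (adjusted p = 3.64e-08). The GDF15 levels of the groups were far apart and those within a group close together. SPATA18, which acts in mitochondrial quality control, was at 13.7, 10.2 and 9.42 TPM with siCtrl and at 2.42, 2.27 and 2.60 TPM with DMSO, with a log2 change of 1.56 ± 0.15.

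Other p53 targets cover arrest, repair, metabolism and death. BTG2, an antiproliferative factor, stood at 40.4, 40.5 and 39.1 TPM with siCtrl and at 14.1, 13.4 and 13.4 TPM with DMSO. FAS, the death receptor, stood at 14.4 ± 1.42 TPM against 4.64 ± 0.84 TPM (SD, n = 3), a log2 change of 1.21 ± 0.11. FDXR, an electron donor protein of mitochondria, and GADD45A, a growth arrest and DNA damage gene, rose by log2 changes of 0.77 ± 0.05 and 0.70 ± 0.08. The smaller rises included the death receptor TNFRSF10B at 0.41 ± 0.06 and the pore-forming death protein BAX at 0.23 ± 0.04. MDM2, the ubiquitin ligase that removes p53, rose by 0.42 ± 0.10, and this call was lost after centring by GC content and length (adjusted p = 0.185). MDM2, BAX, FDXR and GADD45A were named after their values were seen.

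**Figure D1:**
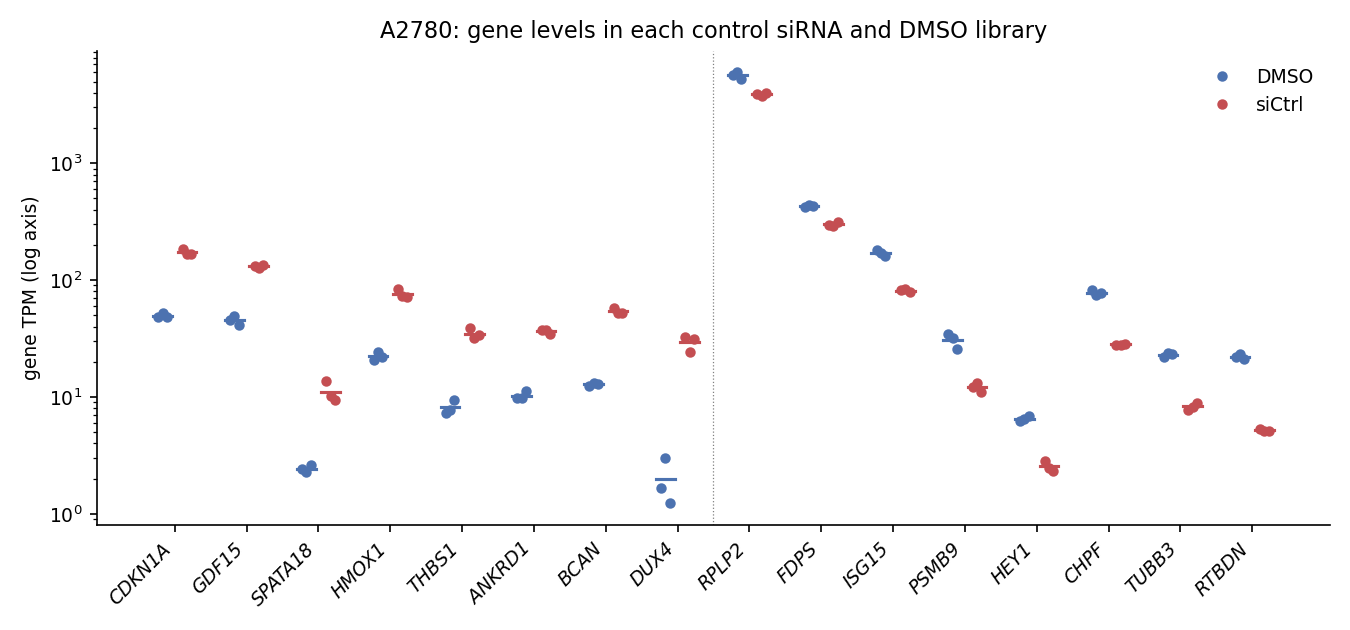
Gene TPM in each A2780 library, on a log axis, for 16 genes; blue points are the 3 DMSO libraries, red points the 3 siCtrl libraries and bars the group means. The 8 genes left of the dotted line rose and the 8 right of it fell, with no overlap between the groups for any of the 16. Genes named as largest rises or falls were chosen for that lack of overlap.

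Genes of the NRF2 antioxidant programme moved both ways, with 12 of 25 rising and 5 falling. HMOX1, which breaks down heme, was at 84.4, 72.8 and 72.1 TPM with siCtrl and at 20.9, 24.1 and 21.9 TPM with DMSO. The log2 change of HMOX1 was 1.49 ± 0.09 (adjusted p = 9.81e-08). HMOX1 too is among the 15 largest rises, picked for no overlap between the groups, so the gap between its levels is no further result. OSGIN1, an oxidative stress gene, SLC7A11, the cystine importer, and TXNRD1, a thioredoxin reductase, rose by 1.04 ± 0.17, 0.81 ± 0.11 and 0.80 ± 0.07. The falls included the detoxifying enzyme EPHX1, at 50.6 ± 3.93 TPM against 72.1 ± 4.47 TPM (SD, n = 3). Among 31 lysosome and autophagy genes, 11 rose and 1 fell, beside 22.7% and 10.8% of all genes. The median of this list stood 0.06 above that of all genes. In ES2 25 of the 30 members tested rose and 3 fell. The autophagy receptor SQSTM1 was at 127, 126 and 110 TPM with siCtrl and at 47.5, 51.7 and 54.1 TPM with DMSO, with a log2 change of 0.99 ± 0.11. The ubiquitin-like autophagy protein GABARAPL1 and the proton pump subunit ATP6V1A rose by 0.56 ± 0.10 and 0.59 ± 0.07.

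Targets of YAP and TEAD, which report on cell shape and contact, rose in 7 of 19 cases and fell in 1, beside 22.7% and 10.8% of all genes. The median of this list stood 0.11 above that of all genes, and 3 members were lower after median-of-ratios scaling. After centring by GC content and length 7 were higher and 2 lower. ANKRD1, a nuclear ankyrin repeat protein, was at 37.5, 37.7 and 34.2 TPM with siCtrl and at 9.78, 9.83 and 11.1 TPM with DMSO (log2 change 1.49 ± 0.07, adjusted p = 1.64e-08). CCN2, a matricellular growth factor, stood at 19.7 ± 0.49 TPM against 6.94 ± 0.33 TPM (SD, n = 3), and PTPN14, a phosphatase that restrains YAP, rose by 0.70 ± 0.09. Among 36 genes of extracellular matrix and adhesion, 9 rose and 9 fell, and 16 were lower after median-of-ratios scaling. THBS1, a matrix glycoprotein, was at 38.6, 32.1 and 33.6 TPM with siCtrl and at 7.27, 7.68 and 9.498 TPM with DMSO. The log2 change of THBS1 was 1.73 ± 0.12. The collagenase MMP1, which is not on that list, rose by 1.40 ± 0.12, whereas TIMP2, an inhibitor of such enzymes, fell from 18.3 ± 0.75 to 7.33 ± 0.28 TPM (SD, n = 3). The collagen chain COL6A2 fell as well, with a log2 change of -1.24 ± 0.08.

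Among the largest single rises were genes with no common list. BCAN, a proteoglycan of brain matrix, was at 57.3, 52.6 and 52.0 TPM with siCtrl and at 12.5, 13.2 and 12.99 TPM with DMSO (log2 change 1.74 ± 0.11). SLC26A1, an anion exchanger, rose by 2.30 ± 0.30, with siCtrl levels spread from 11.96 to 32.0 TPM and DMSO levels from 2.21 to 3.63 TPM. NFKBIZ, a nuclear regulator of NF-kB, was at 15.1 ± 0.67 TPM against 3.70 ± 0.32 TPM (SD, n = 3). Of 13 genes of the NF-kB and cytokine list, 5 rose and 1 fell. BIRC3, an inhibitor of apoptosis, rose by 1.16 ± 0.17, and the fall was the cytokine IL11, with a log2 change of -0.81 ± 0.12. NUPR1 and DDIT3, transcriptional regulators of the integrated stress response, rose by 0.77 ± 0.09 and 0.55 ± 0.09, while 9 of the 32 genes of that list rose and 7 fell, and 19 were lower after median-of-ratios scaling.

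DUX4, a transcription factor of the early embryo that is silent in most adult cells, had the largest rise among the named genes. Its level was 32.7, 24.3 and 31.6 TPM with siCtrl and 1.68, 3.02 and 1.23 TPM with DMSO, with a log2 change of 3.15 ± 0.29 (adjusted p = 2.88e-06). DUX4 lies in many near-identical repeat copies between which kallisto divides reads, so its level is uncertain. A list of 30 genes known as DUX4 targets was looked at after these values were seen. Only 14 passed the filter on low values, of which 8 rose, 1 (ZNF296) fell and 5 neither rose nor fell. The other 16 were too low to test. Of those 5, MBD3L2 and RFPL4A were higher on the deposited scale only (adjusted p = 0.035 and 0.018). The filter takes genes at 1 TPM or more in at least 3 libraries of any A2780 group. H3Y2, RFPL4B, CCNA1 and SLC34A2, which rose, were under 1 TPM in every DMSO library and passed it through other groups, siCtrl among them. For SLC34A2 the 3 siCtrl libraries, at 1.86, 1.10 and 1.70 TPM, were enough to pass. Of all genes tested 22.7% rose and 10.8% fell. The count of rises in the list depends in part on the filter and was not tested against these shares, so no conclusion is drawn from it. KHDC1L, a gene of this list, was at 13.2, 14.6 and 18.4 TPM with siCtrl and at 5.05, 4.79 and 3.68 TPM with DMSO (log2 change 1.32 ± 0.16). The histone variant gene H3Y1 was at 9.67 ± 1.06 TPM against 2.64 ± 0.54 TPM (SD, n = 3). The groups did not overlap for KHDC1L or H3Y1, but both are among the largest rises of the list, so the lack of overlap is no further result. ZSCAN4, another of these genes, was at 0.56 TPM with siCtrl and 0.24 TPM with DMSO on average and did not pass the test (adjusted p = 0.11).

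Genes of the cytosolic ribosome fell together. Of 79 genes tested, 68 fell and none rose, and all 79 were lower after median-of-ratios scaling. On the deposited scale 1 of them, RPS15A, was higher at 2170 against 1998 TPM. The list held 19.9% ± 0.13 of all TPM with siCtrl and 23.9% ± 0.71 with DMSO (SD, n = 3), and the exact permutation test gave its smallest possible two-sided p, 0.1. RPLP2, a protein of the ribosomal stalk, was at 3889, 3782 and 3957 TPM with siCtrl and at 5659, 5999 and 5260 TPM with DMSO. The RPLP2 groups did not overlap, and the log2 change was -0.78 ± 0.05 (adjusted p = 4.31e-06). RPL37A and RPL41, proteins of the large subunit, had log2 changes of -0.79 ± 0.07 and -0.77 ± 0.05, and RPL41 was named after its values were seen. Many ribosomal protein genes have near-identical pseudogenes, so the level of a single gene is uncertain. Ribosomal protein genes are short, with a median length of 671 bases, and the shortest genes had a lower median change than the rest, as given below. After centring by GC content and length, 78 of the 79 remained lower.

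Transcripts of most ribosomal protein genes begin with a C followed by a run of pyrimidines, the 5′ terminal oligopyrimidine tract, through which their translation follows nutrient signals. The windows below show the start sites of 3 of the genes that fell, from 15 bases before the start to 15 bases after it, with the pyrimidine run at the start in capitals. They are from RefSeq, build GRCh38.p14, on the plus strand, at chr12:56116618-56116647, chr2:216498829-216498858 and chr11:809952-809981.
RPL41: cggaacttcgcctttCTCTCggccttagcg
RPL37A: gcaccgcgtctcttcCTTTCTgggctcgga
RPLP2: ttgcgtcggcgccttCCTTTTCCTCCCTgt
The pyrimidine start was searched after the fall of these genes had been seen. Of 63 ribosomal protein genes of the list with a RefSeq promoter, 43 (68.3%) start with a C and 4 further pyrimidines, against 5.53% of the 10024 tested genes with a promoter. Among the genes at least 2-fold higher the share was 6.2%, and among those at least 2-fold lower it was 4.08% (2 of 49). Over all genes called higher and lower on the deposited scale it was 4.46% and 10.03%, and those called lower include most of the ribosomal protein genes.

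The nuclear genes of the respiratory chain fell in 22 of 43 cases and rose in 1. COX8A, a subunit of cytochrome c oxidase, was at 1064, 1059 and 1081 TPM with siCtrl and at 1536, 1672 and 1415 TPM with DMSO (log2 change -0.77 ± 0.05). COX6B1 of the same complex and ATP5F1D of the ATP synthase had log2 changes of -0.69 ± 0.05 and -0.74 ± 0.07. The rise was NDUFS1, a large subunit of complex I, at 0.29 ± 0.08, and it was lost after centring by GC content and length (adjusted p = 0.284). These genes are also short, with a median length of 918 bases, and 35 of the 43 were lower after that centring. The 13 mRNAs of the mitochondrial genome held 7.19% ± 0.74 of TPM with siCtrl and 7.10% ± 1.03 with DMSO (SD, n = 3), with an exact permutation p of 0.9. Of these 13, only MT-ND5 rose (0.66 ± 0.16), a call lost after the same centring, and 1 fell.

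Genes of cholesterol synthesis and uptake fell in 8 of 25 cases and none rose. FDPS, which makes farnesyl diphosphate, was at 296, 291 and 313 TPM with siCtrl and at 423, 435 and 433 TPM with DMSO. The FDPS groups were well apart, with a log2 change of -0.76 ± 0.04 (adjusted p = 1.19e-06). The sterol enzymes EBP and DHCR7 and the sterol carrier STARD4 fell too, with log2 changes of -0.70 ± 0.05, -0.66 ± 0.08 and -0.75 ± 0.13. After median-of-ratios scaling 18 of the 25 were lower.

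**Figure D2:**
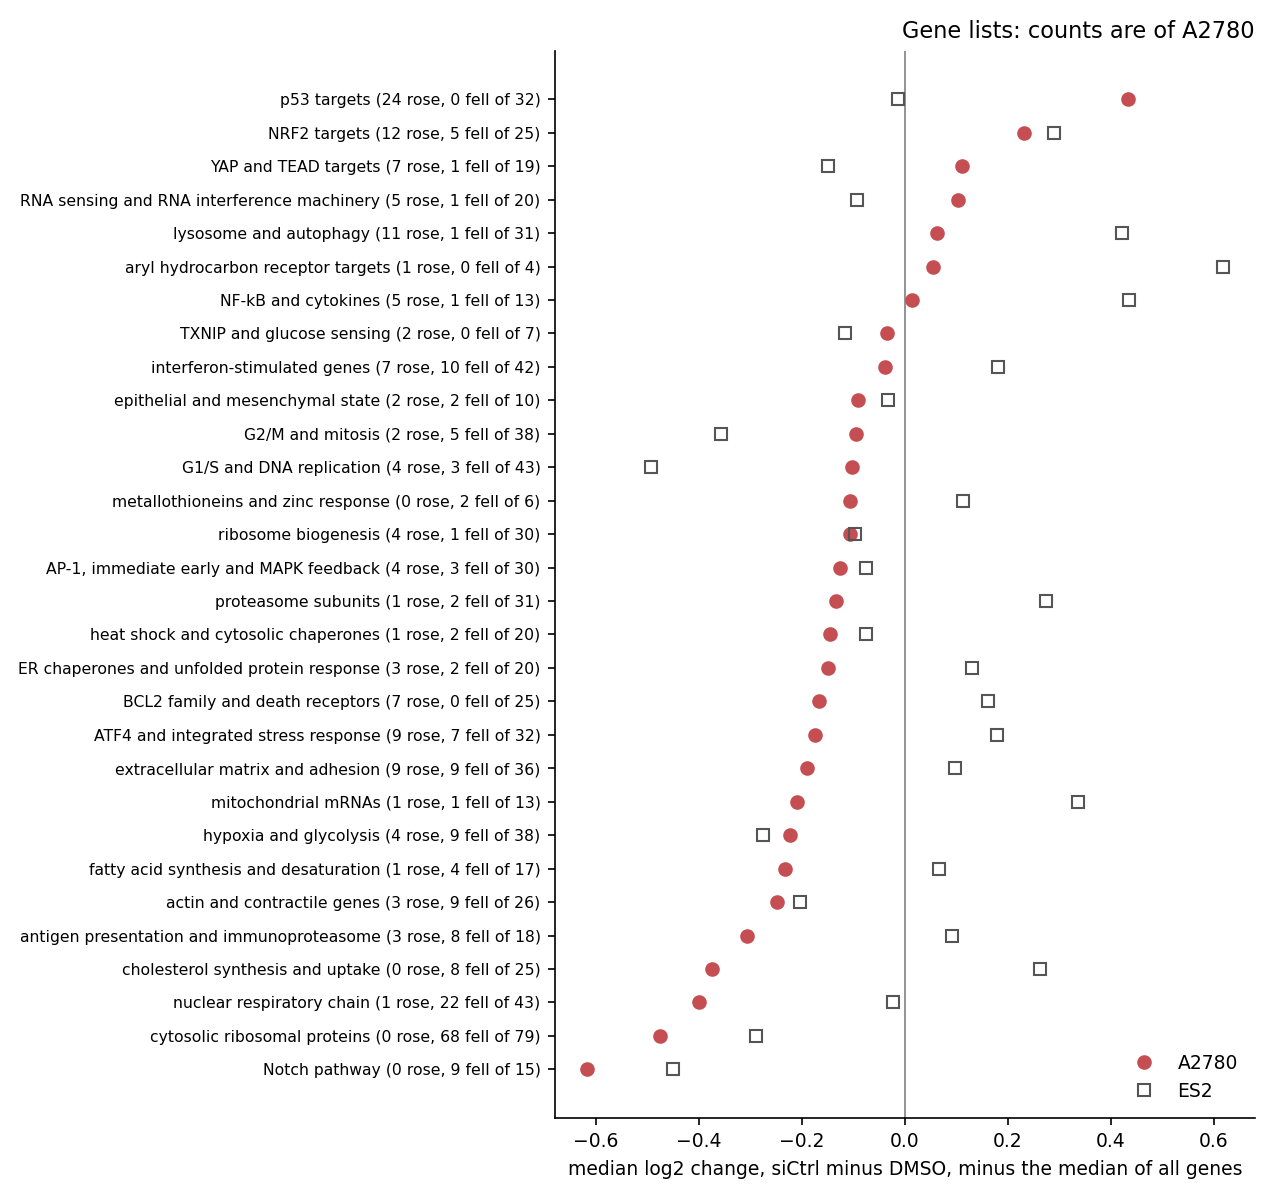
Median log2 change of each gene list (siCtrl minus DMSO, relative to the median of all genes of the line), with filled circles for A2780 and open squares for ES2; the labels give how many A2780 members rose and fell of those tested. In A2780 the p53 targets stand furthest to the right at 0.43 and the Notch pathway furthest to the left at -0.62.

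Genes for presenting antigen to T cells fell in 8 of 18 cases and rose in 3. PSMB9, a catalytic subunit of the immunoproteasome, was at 12.3, 13.2 and 11.1 TPM with siCtrl and at 34.4, 31.8 and 25.5 TPM with DMSO (log2 change -1.497 ± 0.17). PSME1, an activator subunit of the proteasome, was at 62.2 ± 5.30 TPM against 126 ± 1.499 TPM (SD, n = 3), and the peptide transporter TAP1 had a log2 change of -0.98 ± 0.10. The PSMB9, PSME1 and TAP1 levels of the groups did not overlap. ERAP1, a peptidase that trims peptides in the endoplasmic reticulum, rose by 0.51 ± 0.11.

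Interferon-stimulated genes moved both ways, with 7 of 42 rising and 10 falling, and the list's median stood at -0.04. With the libraries rescaled by median-of-ratios, 7 members passed as higher and 15 as lower, and after centring by GC content and length 4 were higher and 21 lower, with a median of -0.19. ISG15, a ubiquitin-like protein, was at 82.5, 83.3 and 78.4 TPM with siCtrl and at 182, 172 and 161 TPM with DMSO. All siCtrl levels of ISG15 lay far below the DMSO levels, with a log2 change of -1.31 ± 0.06 (adjusted p = 1.95e-07). LGALS3BP, a secreted glycoprotein, and IRF1, a transcription factor of the interferon response that was named after its values were seen, had log2 changes of -1.46 ± 0.12 and -1.1 ± 0.10. TRIM22 and TRIM5, ubiquitin ligases that restrict viruses, rose by 0.69 ± 0.19 and 0.38 ± 0.11, and the TRIM5 call was lost after centring by GC content and length (adjusted p = 0.094). Of 20 genes for RNA sensing and RNA interference, 5 rose and 1 fell, against 22.7% and 10.8% of all genes. The share of rises is thus near that of all genes. After centring by GC content and length 2 of the 20 were higher and 4 lower. The RNA sensor DDX58 (RIG-I), the kinase TBK1 and the nuclease DICER1 rose by 0.46 ± 0.11, 0.56 ± 0.06 and 0.43 ± 0.08, and the calls of DDX58 and DICER1 were lost after that centring (adjusted p = 0.202 and 0.185).

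Interferon regulatory factors bind sites with the letters TTTCNNTTT. The windows below, again from RefSeq build GRCh38.p14 and on the strand of the gene, show a match in capitals on either strand for 3 genes that fell and 1 that rose, chosen because genes with the same letters moved in opposite directions. They lie at chr1:1013381-1013410 (plus strand), chr6:32853813-32853842 (minus), chr14:24146618-24146647 (minus) and chr2:37156966-37156995 (minus).
ISG15: cgggaaagggAAACCGAAActgaagccaaa
TAP1: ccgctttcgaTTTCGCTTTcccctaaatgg
PSME2: ctggggagtgAAAGCGAAAgcccgggcgac
EIF2AK2: gtccaaggggAAAACGAAActgagaaccag
PSME2, a further proteasome activator subunit, had a log2 change of -0.72 ± 0.09. EIF2AK2, the RNA-activated kinase PKR, which was named after its values were seen, rose by 0.38 ± 0.13, with siCtrl levels of 31.1, 33.9 and 35.0 TPM and DMSO levels of 20.1, 17.7 and 27.3 TPM. The rise of EIF2AK2 was lost after centring by GC content and length (adjusted p = 0.456). The letters were present in 20 of 32 promoters of interferon-stimulated genes (62.5%) and in 9 of 15 of the antigen presentation list (60.0%), against 6.75% of the 10024 tested genes with a promoter.

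Over all genes at least 2-fold higher on the deposited scale (242 of 335 with a promoter), TTTCNNTTT was present in 9.5% and over those at least 2-fold lower (49 of 73) in 8.16%. The AP-1 letters TGANTCA were present in 10.3% of the higher, 6.12% of the lower (3 of 49) and 4.21% of all, and in 4.81% and 3.58% of all genes called higher and lower. The CCAAT box was present in 35.5% of the higher, 16.3% of the lower (8 of 49) and 36.8% of all. Over all genes called higher and lower its share was 37.05% and 37.6%, near that of all genes. CACGTG was present in 8.26% of the higher, 6.12% of the lower (3 of 49) and 10.2% of all. TGCGCA was present in 9.92%, 6.12% and 13.8%, and TGACGTCA in 2.89%, 2.04% and 3.34%. TTTCGCGC was present in 1.24%, 0% and 1.09%, and GGACTTTCC in 0.41%, 0% and 0.41%. Over all genes called higher and lower, CACGTG was present in 11.1% and 8.06%, TGCGCA in 14.5% and 12.3% and TTTCNNTTT in 7.02% and 5.64%. Each was searched on both strands of the 300 bases around the start, and a match is a description of the letters, not a binding site.

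The Notch pathway had the lowest median of the lists, at -0.62, with 9 of 15 genes falling and none rising. HEY1, a repressor switched on by Notch, was at 2.85, 2.46 and 2.33 TPM with siCtrl and at 6.19, 6.42 and 6.84 TPM with DMSO (log2 change -1.32 ± 0.13). The HEY1 levels of the groups were apart. The ligands DLL3 and JAG1 and the target HES4 had log2 changes of -0.88 ± 0.10, -0.88 ± 0.12 and -0.86 ± 0.07. The Notch genes are rich in GC, with a median of 59.6% against 50.1% for all genes, and 10 of 15 were lower after centring by GC content and length.

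Of 38 genes of hypoxia and glycolysis, 9 fell and 4 rose, and 22 were lower after median-of-ratios scaling. The aldolase ALDOC was at 7.86, 7.11 and 8.07 TPM with siCtrl and at 24.3, 21.1 and 24.4 TPM with DMSO, and the lactate exporter SLC16A3 was at 4.17 ± 0.80 TPM against 9.87 ± 1.55 TPM (SD, n = 3). The glucose importer SLC2A3 moved the other way, from 42.5 ± 3.58 TPM with DMSO to 91.5 ± 0.21 TPM with siCtrl (SD, n = 3). Its siCtrl levels lay between 91.2 and 91.7 TPM. JUND, an AP-1 subunit, fell with a log2 change of -1.21 ± 0.07.

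The remaining lists are given by their counts, beside the 22.7% of all genes that rose and the 10.8% that fell. Of the 26 actin and contractile genes 3 rose and 9 fell, and of 17 genes of fatty acid synthesis 1 rose and 4 fell. Of 30 AP-1 and immediate early genes 4 rose and 3 fell. After median-of-ratios scaling 18 actin, 12 fatty acid and 12 AP-1 and immediate early genes were lower. Of 25 genes of the BCL2 family and death receptors, 7 rose and none fell, but 6 were lower after median-of-ratios scaling, and 6 were higher and 6 lower after centring by GC content and length. Of 30 ribosome biogenesis genes 4 rose and 1 fell, of 20 chaperones of the endoplasmic reticulum 3 rose and 2 fell. Of 20 heat shock genes 1 rose and 2 fell. Of these 3 lists 15, 11 and 11 members were lower after median-of-ratios scaling. Among 31 proteasome subunits 1 rose and 2 fell, and 18 were lower after median-of-ratios scaling. In ES2 27 of them rose, and 21 changed more downward in A2780 by the test of the difference given below. Small lists gave 2 rises of 7 genes for glucose sensing, 1 of 4 for the aryl hydrocarbon receptor, 2 falls of 6 for metallothioneins, and 2 rises and 2 falls of 10 for the epithelial and mesenchymal state.

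Among the largest falls was that of RTBDN, a retinal binding protein, at 5.33, 5.10 and 5.07 TPM with siCtrl and at 22.0, 23.2 and 21.2 TPM with DMSO (log2 change -2.15 ± 0.08, adjusted p = 1.64e-08). CACNG7, an auxiliary subunit of calcium channels and glutamate receptors, was at 11.2 ± 0.85 TPM against 41.4 ± 1.86 TPM (SD, n = 3), and HRC, a calcium-binding protein of muscle, had a log2 change of -2.15 ± 0.21. RTBDN, CACNG7 and HRC were named by a rule that asks for no overlap between the groups, so its absence is no further result. TUBB3, a neuronal tubulin, and CHPF, which builds chondroitin chains, fell by log2 changes of -1.61 ± 0.12 and -1.68 ± 0.05. Of the neural markers NES and TUBB3 fell, while BCAN and MAP2, a microtubule protein of neurons, rose. The 15 largest falls had a median GC content of 59.9% and the 15 largest rises one of 49.6%.

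Of 43 genes for S phase entry and DNA replication, 4 rose and 3 fell, among them the polymerase POLE (0.34 ± 0.12), the helicase subunit MCM4 (0.29 ± 0.11) and the histone chaperone subunit CHAF1A (-0.51 ± 0.05). Of 38 genes of mitosis, 2 rose and 5 fell. The ubiquitin-conjugating enzyme UBE2C was at 277, 284 and 294 TPM with siCtrl and at 374, 378 and 349 TPM with DMSO, and PRC1, which bundles spindle microtubules, had a log2 change of -0.68 ± 0.11. Median-of-ratios scaling left 19 of the 43 replication genes and 14 of the 38 mitotic genes lower, and 4 and 2 higher.

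The change of a gene varied with the GC content and length of its transcripts, and with its level. In the lowest of 5 equal bins of GC content (31.97% to 42.7%) the median change on the deposited scale was 0.42, and it fell from bin to bin to 0.02 in the highest. From the shortest to the longest of 5 bins of length the median went from 0.11 to 0.37. Each of the 3 siCtrl libraries gave this order over the bins of GC, with medians of 0.41 to 0.44 in the lowest bin and -0.01 to 0.04 in the highest. Genes of low GC and long genes made up more of the rises, with 1031 rises and 57 falls in the lowest bin of GC and 258 rises and 656 falls in the highest. In the highest of 5 bins of mean TPM (58.6 TPM or more) the median change was 0.09, with 327 rises and 593 falls. The second lowest bin had a median of 0.35, with 736 rises and 217 falls. Centring by GC content and length did not adjust for level, and the part of level in the falls of abundant genes was not tested.

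**Figure D3:**
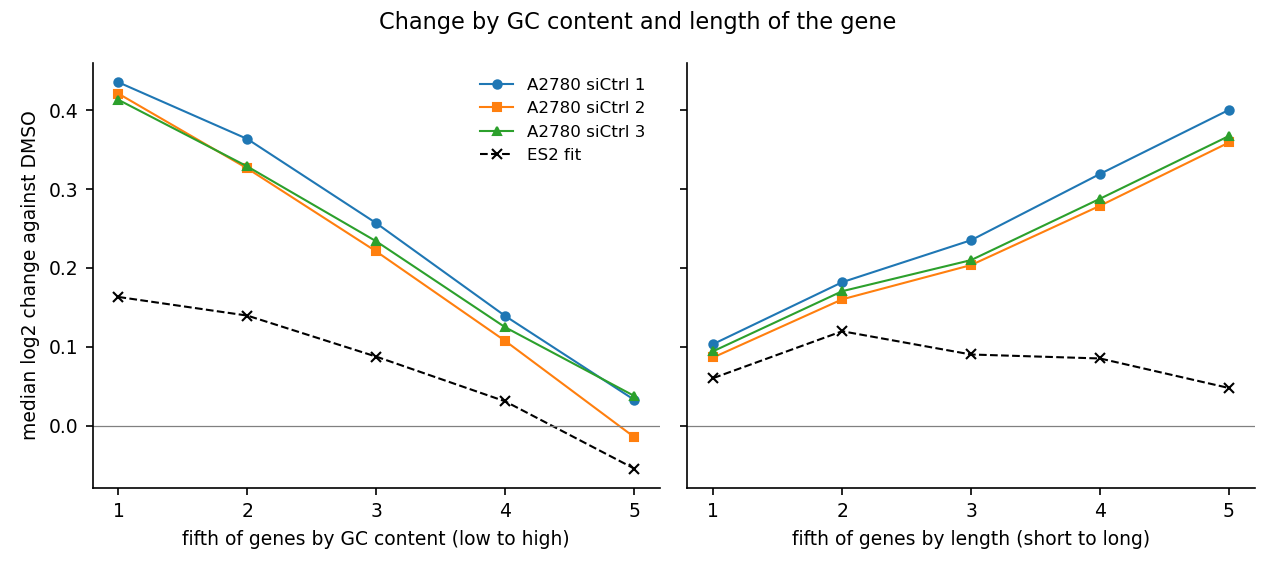
Median log2 change against DMSO over 5 equal bins of the tested genes by GC content (left) and by length (right); coloured lines are the 3 A2780 siCtrl libraries, each against the mean of the 3 DMSO libraries, and the dashed line is the ES2 fit for the same genes. The A2780 lines fall from above 0.4 to near 0 with GC content and rise with length.

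The groups also differed in the classes of transcript. Retained-intron transcripts held 4.58%, 4.36% and 4.53% of TPM with siCtrl and 3.42%, 3.26% and 3.48% with DMSO. Transcripts marked for nonsense-mediated decay held 2.48% ± 0.04 against 2.20% ± 0.10, and the 100 most abundant genes 32.8% ± 0.59 against 36.6% ± 1.45 (SD, n = 3). The groups were apart in all 3 of these shares, with an exact permutation p of 0.1, the smallest that 3 against 3 can give. The part of these shares in the gene results was not tested.

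The most abundant transcript of a gene was another one in all 3 siCtrl libraries than in all 3 DMSO libraries for 120 of the 8898 genes with more than 1 transcript and at least 5 TPM (1.35%). PFN2, a profilin that binds actin, was at 293 TPM with siCtrl and 253 TPM with DMSO, and its main transcript with siCtrl held 53.8%, 50.8% and 51.8% of its TPM there against 25.95%, 25.6% and 28.1% with DMSO. In CCND2, a cyclin of the G1 phase, the main transcript of the siCtrl libraries held 36.3% ± 1.76 of the gene against 6.91% ± 6.51 with DMSO (SD, n = 3). The shares of the groups did not overlap for PFN2 or CCND2, and in CCND2 DMSO library 3, at 14.4%, stood apart from the other two at 2.56% and 3.78%. Of the 120 genes, 81 had a protein-coding main transcript with siCtrl and 95 with DMSO, and 15 and 9 had a retained-intron one. These shares are estimates, since kallisto divides reads between the transcripts of a gene.

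The same comparison was made in ES2, on 6 other libraries. Of 12507 genes tested in ES2, 29.9% rose and 21.5% fell. Among 11304 genes tested in both lines, 1228 rose in both, which is 45.7% of the A2780 rises and 36.3% of the ES2 rises, and 646 fell in both, 55.9% of the A2780 falls and 26.9% of the ES2 falls. A further 218 of the A2780 rises fell in ES2, and 131 of the A2780 falls rose there. Changes of the same kind in both lines were seen for NCR3LG1, a ligand of a natural killer cell receptor (1.12 ± 0.12 in A2780 and 1.74 in ES2), and CLIP4, a linker protein of microtubules (1.09 ± 0.13 and 1.12). TOP1MT, the topoisomerase of mitochondria, fell by log2 changes of -1.52 ± 0.05 in A2780 and -1.84 in ES2, and CHPF by -1.68 ± 0.05 and -1.71.

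The difference between the lines was tested in 1 model of all 24 libraries, in which 18.4% of 14328 genes changed more upward in A2780 and 13.4% more downward. Of the 32 p53 targets, 19 changed more upward in A2780 and none more downward, and of the 27 tested in ES2 6 rose and 2 fell. Of those 19, 5 were under 1 TPM in both ES2 control groups, SPATA18 and BTG2 among them, so their difference restates the A2780 change, and the other 14 reached 1 TPM in ES2. The difference was 1.24 for CDKN1A, 1.48 for FAS and 1.62 for GADD45A on the log2 scale, relative to the median difference. CDKN1A was at 4.86 TPM with siCtrl and 3.50 TPM with DMSO in ES2, far below its A2780 levels. HMOX1 fell in ES2, and its difference was 1.80. Among ribosomal protein genes, 62 of 79 fell in ES2 too, and 8 changed more downward in A2780. Of 18 antigen presentation genes, 11 changed more downward in A2780, with differences of -1.53 for PSMB9 and -1.31 for TAP1, and of 25 cholesterol genes 17 did. Genes of DNA replication differed as well, since 28 of 43 fell in ES2 and 26 of the 43 changed more upward in A2780 by the test of the difference.

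**Figure D4:**
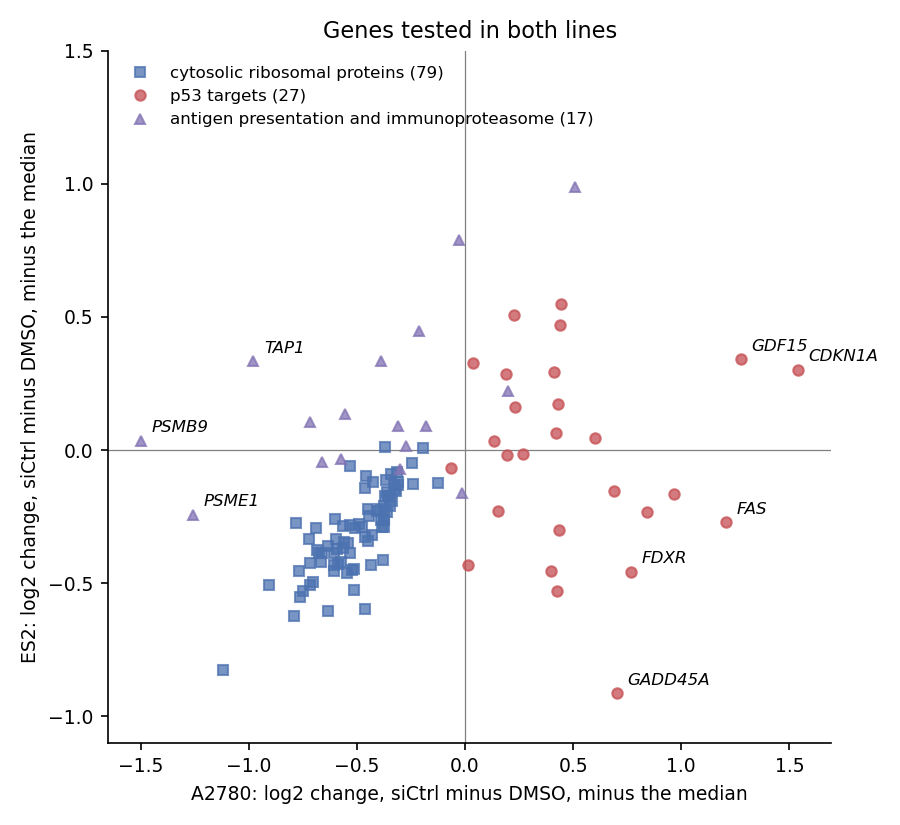
Log2 change (siCtrl minus DMSO, relative to each line's median) in A2780 on the x axis and in ES2 on the y axis, for 79 ribosomal protein genes (squares), 27 p53 targets (circles) and 17 antigen presentation genes (triangles) tested in both lines. The ribosomal protein genes lie to the left of 0 on the x axis and at or below about 0 on the y axis, and the p53 targets, all but 1 to the right of 0, have ES2 values on both sides of 0.

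Levels in the treated A2780 groups, each of which the study sets against 1 of these controls, are given beside them without a test because they share the controls. CDKN1A was at 49.5 TPM with DMSO, 173 with siCtrl, 355 with siVRK1 and 883 with luteolin, and GDF15 at 45.4, 132, 191 and 1032 TPM. The means of HMOX1 were 22.3, 76.5, 168 and 189 TPM, and its siVRK1 and luteolin libraries overlapped. THBS1 and CCN2 were highest with siVRK1, at 123 and 102 TPM, against 8.15 and 6.94 TPM with DMSO. With siCtrl, the control of siVRK1, CCN2 was at 19.7 TPM, and with luteolin at 65.0 TPM. The siCtrl levels of THBS1 are given above. ISG15 was low with siCtrl and luteolin (81.4 and 89.2 TPM) and high with DMSO and siVRK1 (172 and 205 TPM). FDPS was highest with DMSO, at 430.5 TPM, and lowest with luteolin, at 163 TPM. For CHPF and BCAN siCtrl stood apart from the other groups. CHPF was at 28.1 TPM with siCtrl and at 78.0, 77.1 and 75.7 TPM with DMSO, siVRK1 and luteolin. BCAN was at 53.97 TPM with siCtrl and at 12.88, 11.25 and 15.7 TPM with DMSO, siVRK1 and luteolin. How many genes follow each of these patterns was not counted.

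**Figure D5:**
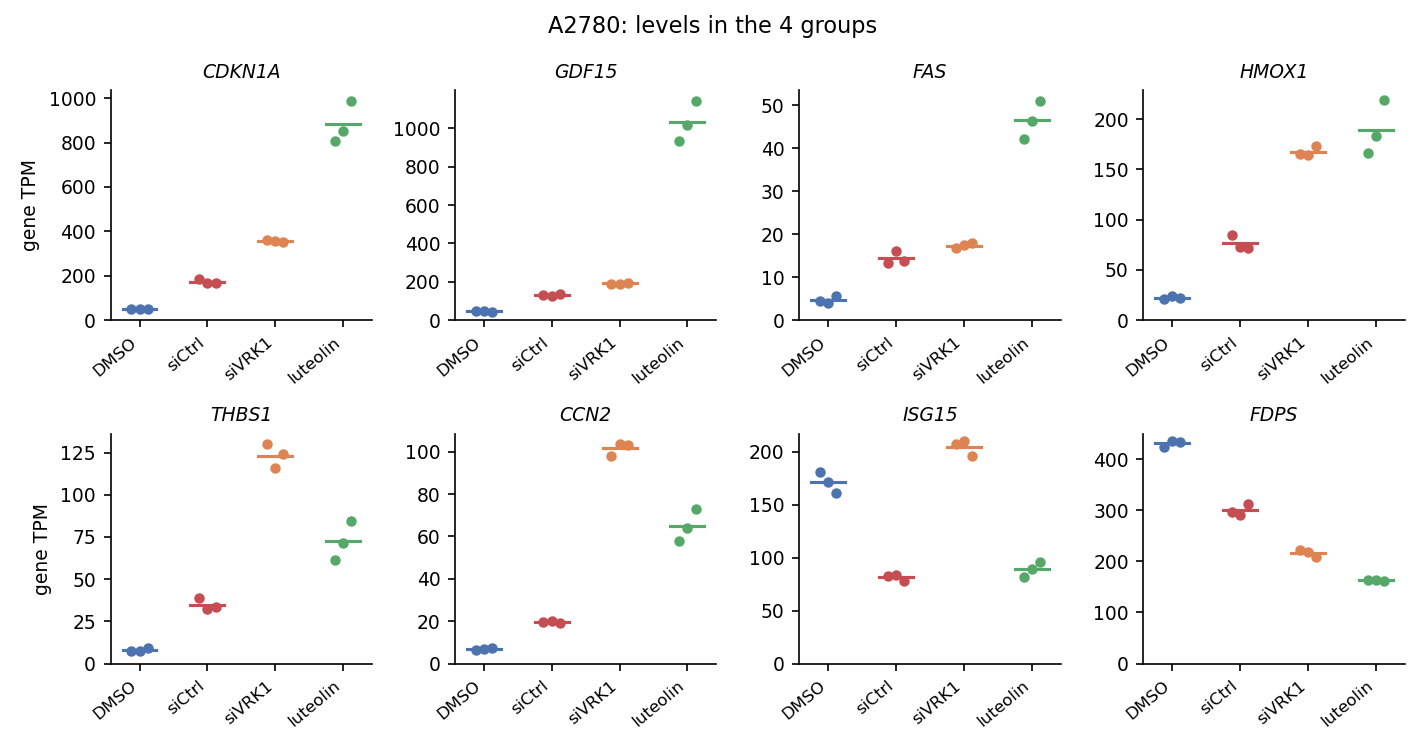
Gene TPM of 8 genes in the 12 A2780 libraries by group, on linear axes from 0; points are libraries and bars the means of 3. The siCtrl points of CDKN1A, GDF15, FAS and HMOX1 lie between those of DMSO and luteolin, and ISG15 is low with siCtrl and luteolin.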

How the data were processed

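The authors deposited 1 TPM value per transcript and library. Per the submitters' processing notes, FastQC and kallisto were used with hg19; no version, transcript set or strand setting is stated there. Of 193845 lines, 1958 repeated a transcript with identical values, so each of 191887 transcripts was used once, and the TPM of all transcripts with 1 symbol were added up to a gene level. limma 3.58.1 in R 4.3.3 (limma-trend, two-sided) was fitted to the 12 A2780 libraries as 4 group means, over genes with at least 1 TPM in at least 3 libraries, with an adjusted p threshold of 0.05; ES2 had a fit of its own and the difference between the lines a fit of all 24 libraries. On the log2 scale of TPM + 1 the change of genes near 1 TPM is understated. Titles gave the groups: the cell line label counts upward within a group, and the titles name A2780 throughout. An ES2 siVRK1 column name occurs 2 times, and both columns entered the fits as separate libraries. GC content, length and transcript class came from GENCODE release 29 by transcript ID, and promoters from RefSeq (10024 of 13012 tested genes matched by symbol).

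Genes named are VRK1, the 15 largest rises and 15 largest falls among called genes without overlap between the groups, with a mean of at least 5 TPM and an established symbol, up to 4 rises and 4 falls of each of 30 gene lists, and genes called in both lines or in their difference; a readthrough of RPL36A was left out as uncertain. The comparison, the lists and the rules were chosen with earlier results of these data known. The steps were tested on simulated data. Alternatives were pseudocounts of 0.1 and 5, other filters, median-of-ratios scaling, quantile normalization, removal of the 13 mitochondrial mRNAs, other libraries in the fit, a robust prior, a block for the replicate number, and fits without each library in turn. Centring in 5 bins of GC content by 5 bins of length was added after the data had been seen.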

Additional observations from a re-analysis of the deposited data

Results flagged for a closer look

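For the genes below the log2 change from DMSO to siCtrl differed between A2780 and ES2 in the test of the difference, on the deposited and on the median-of-ratios scale. The values are A2780 minus ES2, relative to the median difference of all genes, and no explanation was tested. SPATA18, BTG2, H3Y1, KHDC1L, TRIM22, HRC, RTBDN and CACNG7 were under 1 TPM in both ES2 control groups and DUX4 was at 0.89 and 1.19 TPM, so for these 9 genes the difference mainly restates the A2780 change.

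Differences upward in A2780 were 3.35 for DUX4, 2.35 for THBS1, 1.98 for SLC26A1, 1.80 for HMOX1, 1.64 for SPATA18, 1.63 for KHDC1L, 1.62 for GADD45A and 1.499 for NFKBIZ. IL11, which fell in both lines, differed by 1.5, FAS and CCN2 by 1.48 each, H3Y1 by 1.40, BTG2 by 1.36, CDKN1A by 1.24 and FDXR by 1.23. The replication and mitosis genes POLE, PRC1, MCM4 and CHAF1A differed by 1.15, 1.07, 0.62 and 0.29. TRIM22 differed by 1.05, TXNRD1 by 0.9987, MMP1 by 0.95, GDF15 by 0.94, TRIM5 by 0.45, EIF2AK2 by 0.44, PTPN14 by 0.33 and TOP1MT by 0.32.

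Differences downward in A2780 were -2.16 for HRC, -2.04 for RTBDN and -1.42 for CACNG7. Interferon and antigen presentation genes differed by -1.94 (IRF1), -1.68 (LGALS3BP), -1.53 (PSMB9), -1.49 (ISG15), -1.31 (TAP1), -1.01 (PSME1) and -0.82 (PSME2). The Notch genes HEY1 and JAG1 differed by -1.92 and -1.14, and the matrix genes TIMP2 and COL6A2 by -1.66 and -1.46. BIRC3 and ANKRD1 rose in both lines and rose more in ES2, with differences of -1.12 and -1.099, as did NCR3LG1 at -0.62 and DICER1 at -0.68. SLC16A3 differed by -0.96, DHCR7 by -0.92, ALDOC by -0.88, JUND by -0.81, FDPS by -0.65 and EBP by -0.53. The respiratory chain genes ATP5F1D, COX6B1 and COX8A differed by -0.55, -0.47 and -0.33, and RPLP2 by -0.51.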

How the results depend on the processing

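The counts of A2780 genes depended on the scaling. Against 6144 higher and 1412 lower on the deposited scale, median-of-ratios scaling gave 2949 and 3467, quantile normalization 2848 and 2885, and centring by GC content and length 2262 and 3592. Of genes at least 2-fold higher or lower (335 and 73), these 3 settings gave 119 and 177, 88 and 183, and 106 and 133, while a pseudocount of 0.1 gave 803 and 158 and one of 5 gave 59 and 19. For the difference between the lines (4414 higher and 1935 lower), median-of-ratios scaling gave 2651 and 3598, quantile normalization 2862 higher, and centring 2241 and 3756. These scalings reset the median gene by construction. Without each library in turn the A2780 counts were 5133 to 6288 higher and 1212 to 1317 lower, 285 to 448 and 70 to 77 by 2-fold, and 3835 to 4706 and 1784 to 1879 for the difference. The replicate numbers of the titles share only a number (correlations of deviations 0.01, 0.01 and 0.01 for the pairs), and the replicate block gave 5968 higher and 1345 lower, with 4158 and 1815 for the difference where the ES2 siVRK1 libraries were left out because their numbers are not known. For 83 of the named genes the result was followed through the alternatives. Centring by GC content and length ended the calls of MDM2, TRIM5, EIF2AK2, DDX58, DICER1, NDUFS1 and MT-ND5. No other alternative that gave a value ended a call. Passing after median-of-ratios scaling is part of what rose or fell means here, so that scaling could not end such a call. RPS15A, MBD3L2 and RFPL4A, called higher on the deposited scale only, were not among the 83. Under the filter of 5 TPM 3 of the 83 had no value, and 1 had none without the mitochondrial mRNAs. VRK1, which did not pass on the deposited scale, passed as lower after median-of-ratios scaling and after centring. Of 60 counts of list members called, centring by GC content and length kept only 13 within 1.5 times, median-of-ratios scaling 20 and quantile normalization 24, against 52 to 60 under the others. The share of the mitochondrial mRNAs differed by -0.47 to 0.53 percentage points between siCtrl and DMSO without each library. With no depth in TPM, genes near 1 TPM carry an unknown counting error.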
